A study of Mus musculus with 36 samples.

Results

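Of the 12324 H3K4me3 regions found in both fasted pools of mouse small-intestinal crypts, 2718 (22.1%) carried no H3K9bhb peak in any of 4 lists and no H3K27me3 peak in a fasted pool. H3K4me3 is trimethylation of histone H3 at lysine 4, H3K9bhb is beta-hydroxybutyrylation of lysine 9 of the same histone, and H3K27me3 is trimethylation of lysine 27. Peaks of the 4 H3K4me3 lists were merged where they overlapped or touched, which gave 19358 regions. An overlap of 1 bp was enough to call a mark in a region. Against the 11090 regions with H3K4me3 in both fasted pools and no H3K27me3 there, the 2718 H3K9bhb-free regions made up 24.5%. The other 8372 of those 11090, with H3K9bhb in at least 1 list, are the H3K9bhb-carrying regions used for comparison. Both classes were thus defined from measured H3K4me3, H3K9bhb and H3K27me3 peaks, and these choices are described here without a test.

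The study compared chromatin of crypts, the pits of the intestinal lining where stem cells divide, between fasted and fed mice. Fasted pools 2 and 5 came from animals deprived of food for 24 h with water at hand. Fed pools 1 and 4 came from animals with free access to food over the same 24 h. All animals were wild type by the labels, of strains Lgr5EGFP-IRES-CreERT2/+ and C57BL/6J, between 6 and 12 weeks old, of both sexes and housed singly. The crypts of 4 animals were combined in each pool, and TSA, the deacetylase inhibitor trichostatin A, was in the isolation buffers of all pools. Each pool was immunoprecipitated for 8 histone marks, which gave 32 peak lists.

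H3K4me3 marks the start sites of genes, and H3K27ac (acetylated lysine 27) marks active promoters and enhancers. H3K4me1 flanks promoters and covers enhancers, H3K79me2 spreads over the first part of transcribed genes, and H3K9me3 and H3K27me3 belong to different kinds of silent chromatin. H3K9bhb and H4K12bhb carry beta-hydroxybutyrate, the ketone body that circulates at higher levels in fasting. The regions were defined by H3K4me3 peaks alone. Their position relative to genes and the bases under them were not analysed here, because the lists name no genes and the annotation at hand is of another build than the mm9 coordinates of the lists. For the same reason, the crypt origin was not checked against marker genes.

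The lists differed in length from 59 to 46499 peaks, and their read depth is unknown, so a missing peak means only that none was called. H3K4me3 lists held 15079 and 18429 peaks in fasted pools 2 and 5, against 3430 and 295 in fed pools 1 and 4. The H3K4me1 and H3K79me2 lists held from 14129 to 46499 peaks, except in fed pool 1, where they held 309 and 571. H3K9me3 lists held 521 and 4376 peaks in fasted pools 2 and 5, against 208 and 59 in fed pools 1 and 4. In bulk chromatin, fewer cells with a mark and less of the mark per cell cannot be told apart.

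In the fasted pools H3K27ac was, of the 5 marks that the choice of regions did not use, the one most often found at the H3K9bhb-free regions. H3K27ac was called at 68.6% and 89.4% of them in fasted pools 2 and 5, against 20.2% and 6.77% in fed pools 1 and 4. At H3K9bhb-carrying regions the shares were 98.7% and 99.8% in the fasted pools, against 78.0% and 50.5% in the fed pools. Across all 12324 regions, the background was 85.4% and 92.6% in fasted pools 2 and 5, against 58.6% and 36.3% in fed pools 1 and 4. The share of H3K9bhb-free regions lay below that of H3K9bhb-carrying regions in 4 of 4 pools. The mean gap was -35.5 percentage points (SD 20.2, n = 4 pools), and the exact two-sided sign-flip permutation test over pools gave p = 0.125, the smallest that 4 pools allow. After Benjamini-Hochberg adjustment over the 5 marks that the choice of regions did not use, p was again 0.125 in this exact test for each of them, so no mark passed a threshold of 0.05.

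H4K12bhb, the other beta-hydroxybutyrylation mark of the study, gave the widest gap between the classes. It was called at 28.7% and 19.5% of H3K9bhb-free regions in fasted pools 2 and 5, against 17.6% and 7.91% in fed pools 1 and 4. H3K9bhb-carrying regions had it in 92.3% and 83.2% of cases in the fasted pools, against 83.9% and 65.6% in the fed pools. The background over all 12324 regions was 71.2% and 62.1% in fasted pools 2 and 5, against 62% and 46.9% in fed pools 1 and 4. In each of the 4 pools the share at H3K9bhb-free regions was under that at H3K9bhb-carrying ones by 57.7 to 66.3 points, with a mean gap of -62.8 (SD 3.65, n = 4 pools, exact sign-flip p = 0.125). The highest share among H3K9bhb-free regions, 28.7%, was below the lowest among H3K9bhb-carrying regions, 65.6%, so the pools of the classes did not overlap.

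H3K4me1 was called at 5.19% and 44.4% of H3K9bhb-free regions in fasted pools 2 and 5, against 0.147% and 23.8% in fed pools 1 and 4. Among H3K9bhb-carrying regions the shares were 37.8% and 86.0% in the fasted pools, against 0.526% and 70.2% in the fed pools. The background was 27.9% and 73% in fasted pools 2 and 5, against 0.406% and 56.6% in fed pools 1 and 4. The share was lower at H3K9bhb-free regions in 4 of 4 pools, by a mean of -30.3 points (SD 20.7, n = 4 pools, exact sign-flip p = 0.125). With a mark called only where its peaks covered 50% of the region, the mean gap was -16.4 points.

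H3K79me2 was called at 7.36% and 40.0% of H3K9bhb-free regions in fasted pools 2 and 5, against 0.331% and 37.7% in fed pools 1 and 4. H3K9bhb-carrying regions had 29.4% and 70.7% in the fasted pools, against 0.991% and 71.2% in the fed pools. The background was 21.7% and 57.7% in fasted pools 2 and 5, against 0.747% and 57.4% in fed pools 1 and 4. The mean gap was -21.7 points (SD 14.9, n = 4 pools, lower in 4 of 4, exact sign-flip p = 0.125). This gap depended on region size more than the others. With H3K9bhb-carrying regions weighted to the widths of the H3K9bhb-free ones it was -6.63 points and the exact sign-flip p was 0.25, and weighted to their H3K4me3 score percentiles it was -9.88 points. The same width weighting left gaps of -29.9 points for H3K27ac, -53.7 for H4K12bhb and -23.5 for H3K4me1.

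H3K9me3 was the only mark of the 5 that was more frequent at H3K9bhb-free regions. It was called at 1.73% and 4.86% of them in fasted pools 2 and 5, against 0.699% and 0.294% in fed pools 1 and 4. The shares at H3K9bhb-carrying regions were 0.0358% and 0.251% in the fasted pools, against 0.0119% and 0.0239% in the fed pools. The background was 0.406% and 1.27% in fasted pools 2 and 5, against 0.162% and 0.0811% in fed pools 1 and 4. The difference was positive in 4 of 4 pools and averaged +1.81 points (SD 1.95, n = 4 pools, exact sign-flip p = 0.125). It was 0.427 points when only peaks with a score of 100 or more were kept, 1.09 points when fasted pool 5 was left out and 1.05 points with H3K9bhb lists of equal length.

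**Figure D1:**
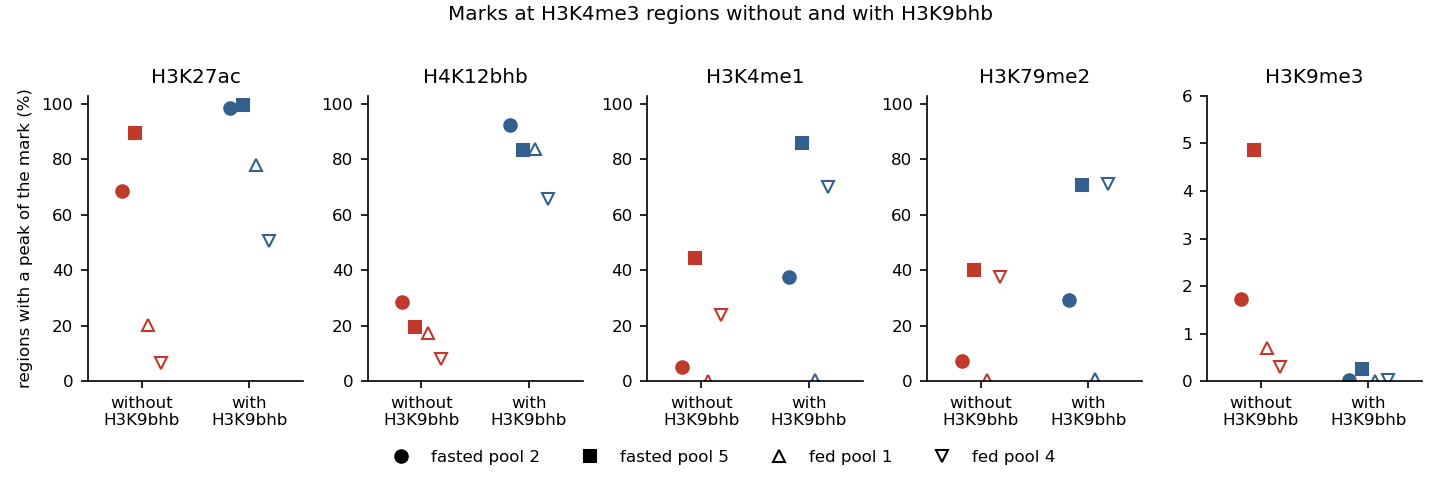
Share of H3K4me3 regions with a peak of each mark, in percent, for 2718 regions without H3K9bhb (red) and 8372 with it (blue); each point is 1 pool, filled for fasted and open for fed, and the H3K9me3 axis ends at 6%. The red points lie under the blue points of the same pool for H3K27ac, H4K12bhb, H3K4me1 and H3K79me2, and above them for H3K9me3.

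Shares of H3K27ac, H4K12bhb, H3K4me1 and H3K79me2 were mostly higher in classes of regions with H3K9bhb in more lists, which is given as a description. H3K27ac in fed pool 4 was called at 6.77% of regions with H3K9bhb in 0 lists, 20.1% with 1, 33.4% with 2, 52.9% with 3 and 79.4% with 4. In fasted pool 2 the jump came at the first list, with H3K27ac at 68.6% of regions with H3K9bhb in 0 lists, 96.7% with 1 and 99.4% with 4. H4K12bhb in fasted pool 2 was called at 28.7% of regions with H3K9bhb in 0 lists, 71.8% with 1, 93.0% with 2, 97.3% with 3 and 99.4% with 4. H3K79me2 in fasted pool 5 had a shallower course, with 40.0%, 60.3%, 66.8%, 73.0% and 78.0% for 0 to 4 lists. These classes held 2718, 1523, 2121, 2061 and 2667 regions for 0 to 4 lists, and their median widths were 2369, 2866, 3229, 3609 and 4602 bp, so width moved with the number of lists. Against the 1523 regions with H3K9bhb in exactly 1 list, the mean gap over the 4 pools was -19.2 points for H3K27ac, -32.1 for H4K12bhb, -12.5 for H3K4me1 and -13.0 for H3K79me2 (exact sign-flip p = 0.125 for each).

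**Figure D2:**
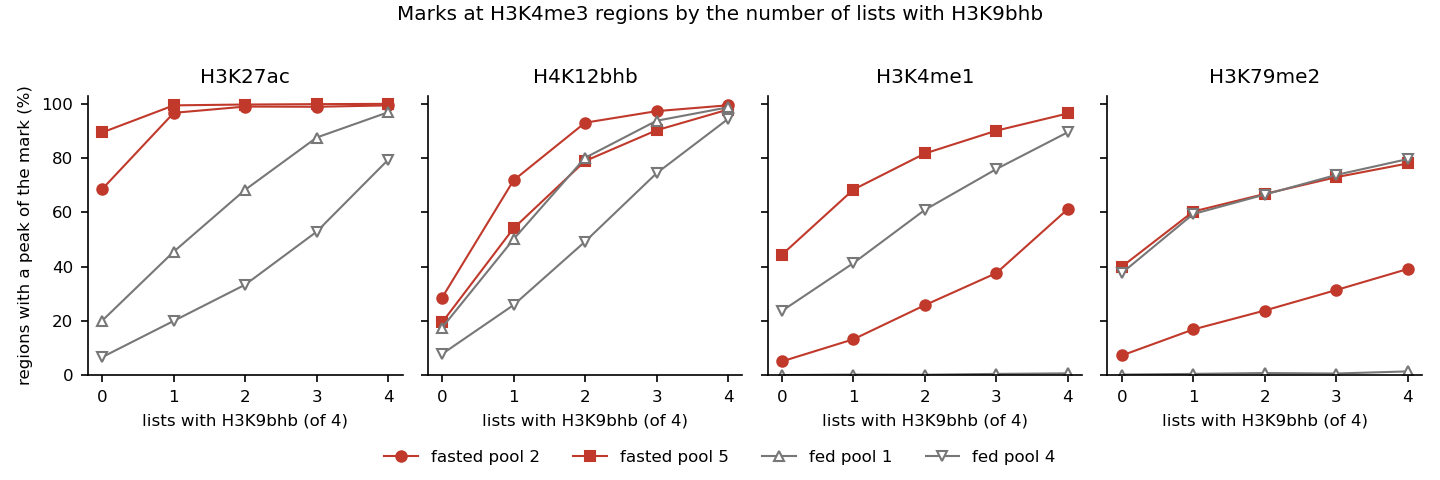
Share of H3K4me3 regions with a peak of H3K27ac, H4K12bhb, H3K4me1 or H3K79me2, in percent, by the number of the 4 H3K9bhb lists with a peak in the region; each line is 1 pool. The leftmost points are the H3K9bhb-free regions, and H4K12bhb shows the steepest step between 0 lists and 1 list in fasted pool 2, 28.7% against 71.8%.

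Between conditions, the H3K27ac shares of the H3K9bhb-free regions did not overlap. Neither did those of the H3K9bhb-carrying regions or those over all 12324 regions. Over all regions they were 85.4% and 92.6% in fasted pools 2 and 5, against 58.6% and 36.3% in fed pools 1 and 4. The mean share of H3K9bhb-free regions was 79.03% ± 14.7 in fasted pools and 13.5% ± 9.50 in fed pools (SD, n = 2 each). For this difference of 65.5 points the exact two-sided permutation test gave p = 0.333 and an adjusted p of 0.556 over the 5 marks. With 2 pools in each condition no smaller p than 0.333 can be reached. The choice of regions required H3K4me3 peaks in both fasted pools but not in fed pools. It could thus favour higher fasted shares of any mark that goes with H3K4me3, here and for the other marks below. All 12324 regions met the same requirement, so neither the H3K9bhb-carrying regions nor the background offset it. H3K27ac lists were also longer in fasted pools, with 37974 and 35917 peaks, against 27640 and 15504 in fed pools. The parts of this choice and of list length in the difference were not tested. H3K9bhb-carrying regions differed by 35.0 points between fasted and fed, and their mean fasted share of 99.2% left almost no room for a higher one. The gap between the classes was -20.2 points in fasted and -50.8 points in fed pools, a change of +30.6 points (exact permutation p = 0.333, adjusted 0.833, n = 2 pools each). That change was 1.94 points when 50% of the region had to be covered and 16.6 points without fasted pool 5. Within pools whose file names carry the number 10 (fasted 2 and fed 1), H3K27ac at H3K9bhb-free regions was 48.4 points higher in the fasted pool, and within the number 11 (fasted 5 and fed 4) it was 82.7 points higher.

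H4K12bhb averaged 24.1% ± 6.45 of H3K9bhb-free regions in fasted pools and 12.8% ± 6.87 in fed pools (SD, n = 2 each). The difference of 11.3 points (exact permutation p = 0.333, adjusted 0.556) was close in size to that of the H3K9bhb-carrying regions, 13.0 points, and the change of the gap was -1.65 points (exact permutation p = 1), or -11.4 points with 50% cover. The fasted minus fed difference was 3.04 points when fasted pool 2 was left out, 17.8 without fasted pool 5, 16.2 without fed pool 1 and 6.42 without fed pool 4, and 5.21 points with 50% cover. It was 11.04 points within the number 10 and 11.6 points within the number 11. For H3K4me1 the means were 24.8% ± 27.8 in fasted and 12.0% ± 16.7 in fed pools, and for H3K79me2 they were 23.7% ± 23.1 in fasted and 19.0% ± 26.4 in fed pools (SD, n = 2 each). Fasted and fed pools overlapped for both of these marks, the exact permutation p was 0.667 for each, and both differences turned sign when 1 pool was left out. Leaving out a pool also changed the set of H3K9bhb-free regions, to 5122 without fasted pool 5 and 2786 without fed pool 1. The fasted minus fed difference of H3K4me1 was -6.52 points when fasted pool 5 was left out. That of H3K79me2 was -10.4 points when fasted pool 5 was left out and -14.1 points when fed pool 1 was. H3K9me3 averaged 3.29% ± 2.21 in fasted and 0.497% ± 0.286 in fed pools (SD, n = 2 each), a difference of 2.80 points (exact permutation p = 0.333, adjusted 0.556). This difference became 5.72 points on leaving out fasted pool 2, 1.70 on leaving out fasted pool 5 and 0.765 with a score of 100 or more. Over all 12324 regions H3K9me3 was also higher in fasted pools, with 0.406% and 1.27% in fasted pools 2 and 5, against 0.162% and 0.0811% in fed pools 1 and 4. Its lists held 521 and 4376 peaks in fasted pools 2 and 5, against 208 and 59 in fed pools 1 and 4. The part of list length in the difference was not tested.

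Counted region by region, 1235 H3K9bhb-free regions (45.4%) had H3K27ac in both fasted lists and in no fed list, against 16.1% of H3K9bhb-carrying regions and 22.9% of all regions. The opposite pattern, both fed lists and no fasted list, was found at none of them, with a background of 0%. The choice by H3K4me3 in both fasted pools also bears on these patterns. Only 77 (2.83%) had H3K27ac in all 4 lists, against 44.9% of H3K9bhb-carrying regions and a background of 31.6%. H3K27ac was in at least 1 list at 2443 H3K9bhb-free regions (89.9%, background 92.9%), and 275 had none, against 10 of the 8372 H3K9bhb-carrying regions.

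H4K12bhb was in at least 1 list at 1150 H3K9bhb-free regions (42.3%), against 97.0% of H3K9bhb-carrying regions and 77.6% of all regions. Of the 1150, 587 had it in 1 list, 333 in 2, 169 in 3 and 61 in all 4, where the share over all regions was 40.3%. The pattern of both fasted and no fed lists held for 149 H3K9bhb-free regions (5.48%), against 5.23% of H3K9bhb-carrying regions and 5.01% of all, so this share was near the background. The opposite pattern, both fed and no fasted lists, held for 19 regions (0.699%, background 0.511%). Of the 1150, 1142 (99.3%) had H3K27ac in some list, as did 89.9% of all H3K9bhb-free regions. Counted within the same pool, these shares were lower in the fed pools, as were those over all H3K9bhb-free regions. H3K27ac was called at 725 of 779 regions with H4K12bhb in fasted pool 2 (93.1%) and at 529 of 531 in fasted pool 5 (99.6%), against 224 of 479 in fed pool 1 (46.8%) and 45 of 215 in fed pool 4 (20.9%). Over all H3K9bhb-free regions it was at 68.6% and 89.4% in fasted pools 2 and 5, against 20.2% and 6.77% in fed pools 1 and 4. In every pool H3K27ac was thus more frequent at regions with H4K12bhb than over all H3K9bhb-free regions. The 1150 were also wider, with a median of 2652.5 bp against 2154.5 bp for H3K9bhb-free regions without H4K12bhb. The lower of their fasted H3K4me3 score percentiles had a median of 50.6, against 33.8. The parts of width and H3K4me3 score in this difference were not tested. H3K4me1 was in at least 1 list at 1359 H3K9bhb-free regions (50%, background 77.9%) and H3K79me2 at 1254 (46.1%, background 63.3%).

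Combinations of H3K27ac, H4K12bhb, H3K4me1 and H3K79me2 were correspondingly sparse. All 4 of these, with no H3K9me3 or H3K27me3, were found over the lists at 567 H3K9bhb-free regions (20.9%), against 70.8% of H3K9bhb-carrying regions. H3K27ac as the only further mark was the next most frequent state, with 550 H3K9bhb-free regions (20.2%), against 49 H3K9bhb-carrying regions (0.585%). H3K27ac with H3K4me1 and H3K79me2 but without H4K12bhb was found at 291 (10.7%), against 1.13% of H3K9bhb-carrying regions. At 85 H3K9bhb-free regions (3.13%) and at 1 H3K9bhb-carrying region, none of these marks nor H3K9me3 or H3K27me3 was called in any list. Shares over all 12324 regions are not given for these combinations. H3K9bhb-carrying regions were also wider, with a median of 3536 bp against 2369 bp, so the contrast does not show the states to be particular to H3K9bhb-free regions. Counts of this kind are descriptive, since neighbouring regions and lists of 1 pool are not independent.

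The presence of H3K4me3 in a fed pool was not part of the choice, although the fed peaks were among those merged and so could widen a region. H3K4me3 was called in fed pool 1 at 11.8% of H3K9bhb-free regions, against 30.7% of H3K9bhb-carrying regions and a background of 24.9%. In fed pool 4 the shares were 0.920% of H3K9bhb-free and 2.80% of H3K9bhb-carrying regions, with a background of 2.19%. H3K4me3 was in neither fed list at 2384 H3K9bhb-free regions (87.7%), against 67.9% of H3K9bhb-carrying regions and 74% of all. Fed H3K27me3 was called at 3 H3K9bhb-free regions in each of fed pools 1 and 4 (0.110% each), and at 3 (0.0358%) and 1 (0.0119%) of the 8372 H3K9bhb-carrying regions in fed pools 1 and 4. The backgrounds of 3.58% and 2.38% include the 1234 regions with H3K27me3 in a fasted pool, which both classes leave out, so nothing is read from them. Since 2 pools allow no exact p under 0.5, these values were not tested.

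H3K9bhb-free regions were narrower and had lower-ranking H3K4me3 peaks. Their width had a median of 2369 bp and quartiles of 1900 and 2900 bp, against a median of 3536 bp and quartiles of 2683 and 4661 bp for H3K9bhb-carrying regions. The score is the authors' value for each peak, -10 times the log10 of p, and was used only as a rank within its list. By the lower of the 2 fasted H3K4me3 percentiles, H3K9bhb-free regions had a median of 41.2, against 64.7 for H3K9bhb-carrying ones. In the narrowest decile of the 11090 regions 47.5% were H3K9bhb-free, as were 52.2% in the next decile and 1.44% in the widest. By score percentile the share was 39.9% in the lowest decile, 42.7% in the next and 0.992% in the highest. A wider region has more room for an overlap, so width and score are tied to the choice and are given without a test.

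**Figure D3:**
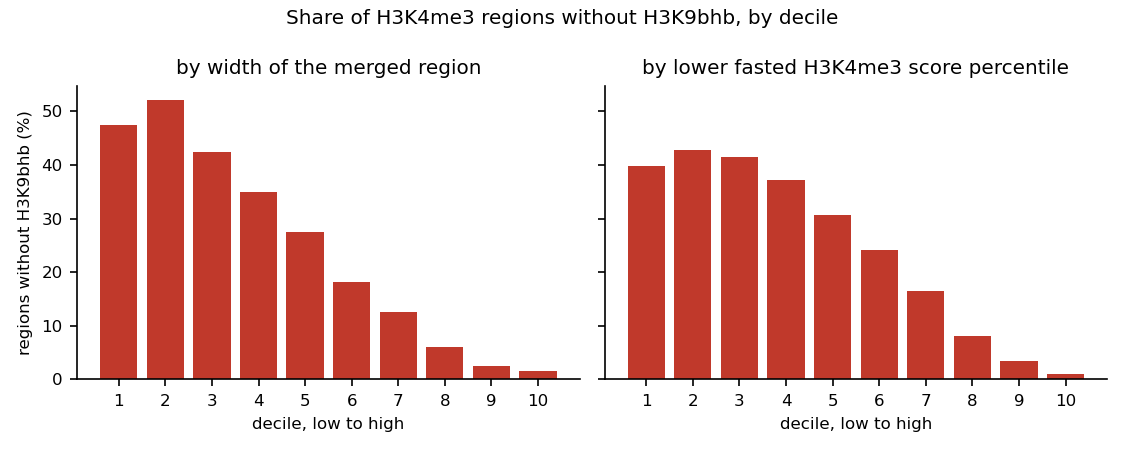
Share of the 11090 H3K4me3 regions without H3K27me3 in a fasted pool that had no H3K9bhb, in percent, by decile of region width (left) and by decile of the lower fasted H3K4me3 score percentile (right), low to high. The share was 47.5% in the narrowest decile and 1.44% in the widest.

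The 10 H3K9bhb-free regions with the strongest H3K4me3 carried H3K27ac, H3K4me1 and H3K79me2 in at least 1 list each. Over all 12324 regions these marks were in at least 1 list at 92.9%, 77.9% and 63.3%. The first, on chromosome 3 (148648473 to 148654464, mm9), was 5992 bp wide, with H3K4me3 percentiles of 98.5 in fasted pool 2 and 97.2 in fasted pool 5. It had H3K27ac in both fasted lists, H4K12bhb in both fasted lists and that of fed pool 1, and its nearest H3K9bhb peak lay 86532 bp away. The second, on chromosome 1 (133420364 to 133426534), reached percentiles of 93.9 and 99.6 in fasted pools 2 and 5 and lay 236861 bp from H3K9bhb. The region farthest from H3K9bhb among the 10, on chromosome 12 (11270770 to 11276000), lay 871922 bp from the nearest peak. All 10 had H3K27ac in both fasted lists, where the background was 85.4% and 92.6% in fasted pools 2 and 5. H4K12bhb was in at least 1 list at 8 of the 10, near the background of 77.6%. None of the 10 had H3K9me3 (background 1.31%) or H3K27me3 in any list.

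The 5 widest H3K9bhb-free regions were mixed. The widest, on chromosome 3 (25441299 to 25456513), spanned 15215 bp, had H3K4me3 in all 4 lists and H3K9me3 in both fed lists, and had no H3K27ac. Another, on chromosome 7 (13074593 to 13082464, 7872 bp), had H3K9me3 in both fasted lists and no further mark. A region of 9281 bp on chromosome 13 (23521604 to 23530884) had H3K4me3 percentiles of 89.2 and 85.5 in fasted pools 2 and 5 and lay 1275 bp from an H3K9bhb peak. The strongest region with H4K12bhb in all 4 lists, on chromosome 4 (129010439 to 129015066), had H3K27ac in both fasted lists and in fed pool 1. The strongest without any further mark, on chromosome 3 (57649561 to 57652590), had percentiles of 51.6 in fasted pool 2 and 63.0 in fasted pool 5. Of the 5 strongest without further marks, 3 were on chromosome 13, which held 149 of the 2718 H3K9bhb-free regions. As these 5 were picked by rank, nothing is read from this count.

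Most H3K9bhb-free regions were not close to an H3K9bhb peak. The distance to the nearest one had a median of 40751 bp and quartiles of 12028 and 131285 bp. It was at most 1000 bp for 172 regions (6.33%), at most 50000 bp for 1504 (55.3%), and 2 regions on chromosome Y had no H3K9bhb peak on their chromosome. Just inside the rule, the nearest were regions on chromosome 16 (23126535 to 23129468) and on chromosome 7 (127977876 to 127980506), each 7 bp from H3K9bhb, and on chromosome 8 (64387085 to 64389357), 15 bp from it. Just outside it, H3K9bhb overlapped a region on chromosome 8 (73396446 to 73398118) by 1 bp, one on chromosome 3 (96044292 to 96045272) by 11 bp, and one on chromosome 10 (99364698 to 99365714) by 13 bp. All 6 of these had H3K27ac in both fasted lists, where the background was 85.4% and 92.6% in fasted pools 2 and 5. In all, 21 H3K9bhb-free regions lay within 100 bp of a peak and 18 H3K9bhb-carrying regions overlapped one by at most 100 bp.

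Where H3K27ac was called, it formed a short domain on the H3K9bhb-free regions. Its peaks covered a median of 64.4% and 79.2% of the region in fasted pools 2 and 5, against 44.0% and 33.5% in fed pools 1 and 4. At H3K9bhb-carrying regions the median cover was 92.2% and 97.8% in the fasted pools, against 62.7% and 40.8% in the fed pools. At the centre of the region, H3K27ac covered 63.6% and 88.0% of H3K9bhb-free regions in fasted pools 2 and 5, and 96.5% and 99.5% of H3K9bhb-carrying ones. At 2 kb from the centre it covered 4.47% and 6.07% of H3K9bhb-free regions in fasted pools 2 and 5, against 51.7% and 56.0% of H3K9bhb-carrying regions. H3K4me3 itself covered 3.75% and 6.31% of H3K9bhb-free regions at 2 kb in fasted pools 2 and 5, and 29.1% and 37.5% of H3K9bhb-carrying ones.

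Ranked within its list, the top H3K27ac peak of an H3K9bhb-free region had a median percentile of 51.1 and 59.8 in fasted pools 2 and 5, against 36.6 and 30.0 in fed pools 1 and 4. For H3K9bhb-carrying regions these medians were 83.9 and 86.6 in the fasted pools, against 74.5 and 66.8 in the fed pools. At H3K9bhb-free regions H4K12bhb peaks ranked lower, with medians of 35.1 and 31.9 in fasted pools 2 and 5, against 33.1 and 28.5 in fed pools 1 and 4. At H3K9bhb-carrying regions the H4K12bhb medians were 79.3 and 75.3 in the fasted pools, against 76.4 and 71.1 in the fed pools. There they lay below those of H3K27ac in the fasted pools and above them in the fed pools. The longest H3K79me2 peak at an H3K9bhb-free region with this mark had a median length of 2190 bp in fasted pool 5 and 2116 bp in fed pool 4. At H3K9bhb-carrying regions the median length was 3756 bp in fasted pool 5 and 3749 bp in fed pool 4.

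**Figure D4:**
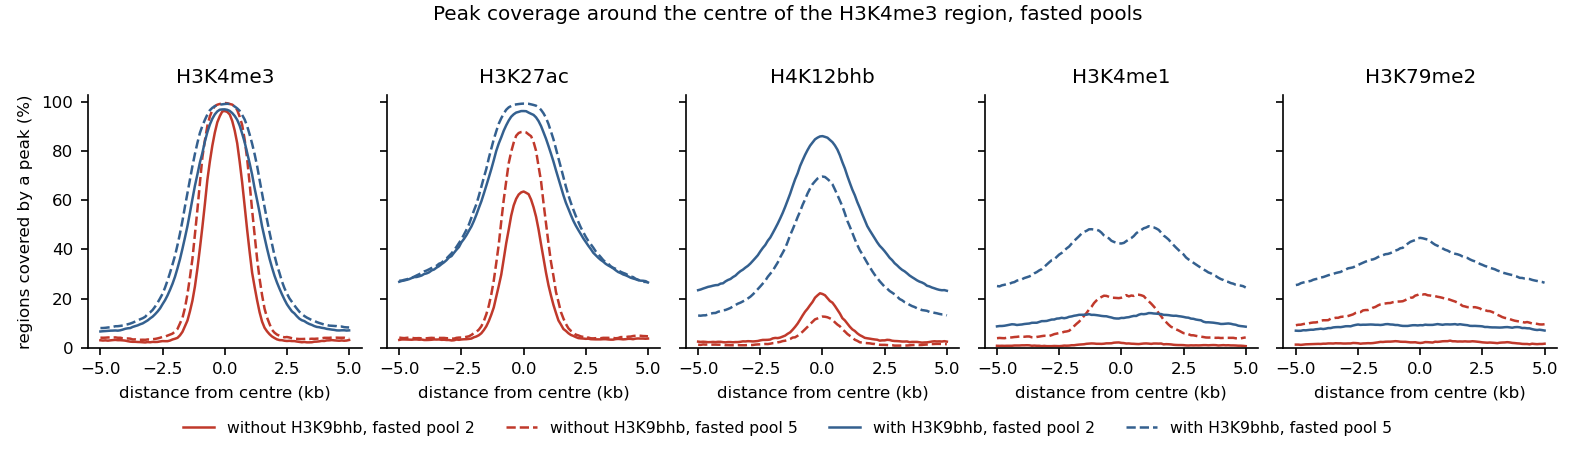
Share of H3K4me3 regions covered by a peak of the mark, in percent, at distances of up to 5 kb on either side of the region's centre, for regions without H3K9bhb (red) and with it (blue) in fasted pools 2 (solid) and 5 (dashed). At 2 kb from the centre H3K27ac covers 4.47% and 6.07% of regions without H3K9bhb, and 51.7% and 56.0% of those with it.

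Peaks of H3K27ac, H4K12bhb, H3K4me1 and H3K79me2 also covered less of the sequence around the H3K9bhb-free regions. From 5 to 50 kb on both sides, H3K27ac covered on average 5.68% and 6.70% of the sequence in fasted pools 2 and 5, against 2.57% and 1.11% in fed pools 1 and 4. Around H3K9bhb-carrying regions the cover was 16.5% and 17.3% in the fasted pools, against 8.60% and 4.09% in the fed pools. Cover by H3K27ac, H4K12bhb, H3K4me1 and H3K79me2 was lower around H3K9bhb-free regions in 4 of 4 pools, by means of -7.61, -6.34, -5.27 and -4.34 points (exact sign-flip p = 0.125 for each, also after adjustment over 5 marks). H3K9me3 cover was higher in 4 of 4 pools, by 0.137 points (exact sign-flip p = 0.125, n = 4 pools). H3K9bhb itself covered 4.12% and 4.23% of these flanks in fasted pools 2 and 5 around H3K9bhb-free regions, and 15.6% and 15.5% around H3K9bhb-carrying ones, and H3K27me3 cover was higher around H3K9bhb-free regions in 4 of 4 pools, by a mean of 0.338 points. H3K4me3 cover was lower around H3K9bhb-free regions in 4 of 4 pools. In fasted pools 2 and 5 it was 3.28% and 4.53% there, and 5.37% and 6.72% around H3K9bhb-carrying regions. Cover by H3K9bhb, H3K27me3 and H3K4me3 is given without a test because the choice used these marks. The part of the sparser H3K4me3 in the differences of the other marks was not tested.

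H3K9bhb-free regions lay next to each other more often than their share of the regions. The next region on the chromosome was H3K9bhb-free for 38.0% of H3K9bhb-free regions and for 20.0% of H3K9bhb-carrying ones, where 24.5% of all 11090 regions were H3K9bhb-free. While 1118 stood alone, 930 lay in unbroken runs of 3 or more, and 49 runs had 5 or more. The longest run held 14 regions on chromosome 10 (81118200 to 82085716), 9 of them with H3K9me3. A run of 13 on chromosome 13 (67432323 to 68722713) had no H3K9me3 at all, and another of 13 on chromosome 17 (21703097 to 23004759) had H3K9me3 at 4. In windows of 5 Mb, the highest count was 40 of 79 regions on chromosome 13 between 20 and 25 Mb. The runs and windows were picked for their high values and carry no test.

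Chromosome X stood apart. Of its 181 regions, 123 (68.0%, 95% Wilson interval 60.8 to 74.3) were H3K9bhb-free, against 2593 of 10907 (23.8%) on the autosomes. The autosomes ranged from 18.5% on chromosome 19 to 32.5% on chromosome 13. The interval covers counting error only, and regions of 1 chromosome are not replicates. X regions also had weaker H3K4me3 than autosomal ones, with a median lower percentile of 26.0 for H3K9bhb-free X regions and 42.0 for H3K9bhb-free autosomal regions. Their widths were alike, with medians of 2351 bp on X and 2369 bp on the autosomes.

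Within tertiles of region width, the H3K9bhb-free share was 89.2% on X and 45.6% on the autosomes in the narrow tertile. In the middle tertile it was 56.4% on X and 22.6% on the autosomes, and in the wide tertile 27.3% on X and 3.49% on the autosomes. Within tertiles of H3K4me3 percentile the share was 76.6% on X (n = 141) and 39.5% on the autosomes in the lowest tertile, and 41.7% on X (n = 36) and 27.3% on the autosomes in the middle one. The highest tertile held 4 X regions, none of them H3K9bhb-free, against 5.09% on the autosomes. The X excess was therefore present within every width tertile and within 2 of the 3 percentile tertiles.

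**Figure D5:**
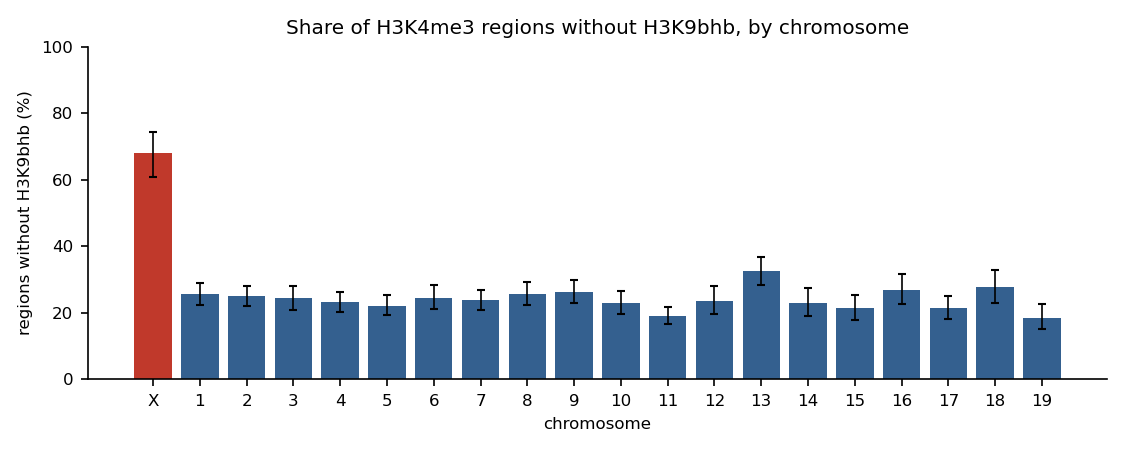
Share of H3K4me3 regions without H3K27me3 in a fasted pool that had no H3K9bhb, in percent, by chromosome; bars on the columns are 95% Wilson intervals, which cover counting error only. Chromosome X, in red, reaches 68.0%, and the autosomes lie between 18.5% and 32.5%; chromosome Y, with 2 regions, is not drawn.

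X regions differed from autosomal regions in other marks too. Over all 181 X regions, H3K4me1 was called at 8.84% in fasted pool 5 and 2.21% in fed pool 4, where the 10907 autosomal regions had 77.0% and 59.8%. H4K12bhb was called at 30.4% and 16.6% of all X regions in fasted pools 2 and 5, against 20.4% and 8.29% in fed pools 1 and 4, and at 52.2% to 77.5% of autosomal regions over the 4 pools. The values that follow are those of the H3K9bhb-free regions. H3K4me1 was called at 0% and 2.44% of the 123 X regions in fasted pools 2 and 5, against 0% and 0.813% in fed pools 1 and 4. On the autosomes the shares were 5.44% and 46.5% in fasted pools 2 and 5, against 0.154% and 24.9% in fed pools 1 and 4. A share of 0% means only that none of 123 regions had a called peak. H4K12bhb was called at 8.13% and 4.07% of X regions in the fasted pools and at 6.50% and 2.44% in the fed pools, where autosomal shares were 29.7% and 20.3% in the fasted pools, against 18.2% and 8.18% in the fed pools. H3K79me2 was called at 22.8% of X regions in fasted pool 5 and 22.0% in fed pool 4, against 40.9% and 38.4% of autosomal regions in the same pools. H3K27ac was called at 48.0% of X regions and 69.6% of autosomal regions in fasted pool 2, and at 95.1% of X regions and 89.2% of autosomal regions in fasted pool 5. In fed pool 1 it was at 4.07% of X regions and 21.0% of autosomal regions, and in fed pool 4 at 0% of X regions and 7.10% of autosomal regions.

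At the H3K9bhb-free regions, H4K12bhb, H3K4me1, H3K79me2 and H3K9me3 were lower on X in 4 of 4 pools, by means of -13.8, -18.4, -10.7 and -1.32 points (exact sign-flip p = 0.125 for each, adjusted 0.156 over 5 marks). H3K9me3 was called at 1 and 2 of the 123 X regions in fasted pools 2 and 5, and at 0 in each fed pool. In fed pool 1, H3K4me1 and H3K79me2 were at 0% of X regions, against 0.154% and 0.347% of autosomal regions. These signs thus rest on few or no called peaks. X was also singled out after its values were seen, which the p-values do not take into account. H3K27ac was lower on X in 3 of 4 pools, by a mean of -9.95 points (exact sign-flip p = 0.25). The animals were of both sexes. The parts of the weaker H3K4me3 on X and of the number of X copies, in these differences and in the X excess of H3K9bhb-free regions, were not tested.

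The 137 H3K9bhb-free regions with H3K9me3 in at least 1 list (5.04%, background 1.31%) were described apart. H3K9bhb-carrying regions had 22 such cases (0.263%). Of the 137, 86 had H3K9me3 in 1 list, 38 in 2, 8 in 3 and 5 in all 4. In fasted pool 5, which gave 132 of them, H3K9me3 peaks covered a median of 92.9% of the region and at least 50% of the region in 118 of the 132, against a median of 48.9% at the 21 H3K9bhb-carrying regions with H3K9me3 in that pool. In fasted pool 2 the median cover was 55.2% at 47 regions, 26 of them covered by at least 50%, and in fed pools 1 and 4 it was 69.8% at 19 regions and 82.5% at 8. The other lists had H3K9me3 at no more than 3 H3K9bhb-carrying regions each, with median covers of 70.6% in fasted pool 2 (n = 3), 94.9% in fed pool 1 (n = 1) and 48.3% in fed pool 4 (n = 2). Whether H3K4me3 and H3K9me3 were on the same alleles or in the same cells was not tested.

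Other marks were nearly missing from these 137. H3K27ac was called at 2.19% and 3.65% of them in fasted pools 2 and 5, against 1.46% and 0.730% in fed pools 1 and 4. At the 2581 H3K9bhb-free regions without H3K9me3, H3K27ac was called at 72.1% and 94.0% in the fasted pools, against 21.2% and 7.09% in the fed pools. H3K9me3 was the only further mark at 115 of the 137, while 14 also had H3K79me2 and no other mark. H3K4me3 in the fed lists went the other way, with 19.0% and 3.65% of the 137 in fed pools 1 and 4, and 11.4% and 0.775% of the 2581. The 137 had a median width of 2097 bp and a median lower H3K4me3 percentile of 19.0, against 2374 bp and 42.5 for the 2581. The 5 Mb windows with the most of them held 9 between 80 and 85 Mb on chromosome 10 and 7 between 145 and 150 Mb on chromosome 4. All H3K9bhb-free regions there numbered 18 of 73 regions on chromosome 10 and 15 of 47 on chromosome 4. Both windows were picked for these counts, and the spread over whole chromosomes was not tested.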

How the data were processed

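Peak lists of 8 marks in 4 pools (32 lists; 4 input samples have no list used here) were analysed. The deposited score in each list is the authors' peak caller value, -10 times log10 of p, and was at least 50 in every list. Peaks were called per library against the same pool's input with MACS 1 without a model, per the file names. FastQC, Bowtie 1.1.2, SAMtools 1.9, deepTools 1.5.11 and mm9 are named in the submitters' processing notes; depth is not given in the sources used here. The design text speaks of 9 modifications, the labels of 8 antibodies.

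Regions were merged, overlapped and ranked in Python 3.11.15 with numpy 2.4.6, pandas 2.3.3 and scipy 1.17.1. Interval steps were checked against bedtools 2.31.1 and tested on simulated data; figures used matplotlib 3.10.9. A region's score percentile is the rank of its top peak within the list. Groups came from the labels; separate pools are the replicates, all marks of a pool share its chromatin and input, and fasted 2 and fed 1 carry the number 10 in their file names, fasted 5 and fed 4 the number 11, whose meaning is not given in the sources used here. Classes were compared by exact sign-flip tests over 4 pools, conditions by exact permutation of 2 pools against 2, two-sided, with Benjamini-Hochberg adjustment over 5 marks. Wilson intervals cover counting error only.

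Regions and comparisons were chosen with earlier results of these data known. Regions named one by one were the 10 H3K9bhb-free regions highest by the lower of their fasted H3K4me3 percentiles, the 5 widest, the 5 highest with H4K12bhb in all 4 lists, the 5 highest with no other mark, and the 3 nearest to the overlap limit on either side, of which the text gives examples. The X chromosome, the H3K9me3 group, runs and windows were singled out after their values were seen. Alternatives were a score of 100 or more, merging across 1000 bp, a 1000 bp margin to H3K9bhb, 50% cover, no H3K27me3 in any list, equal list lengths, H3K9me3 regions left out, other comparison classes, weighting by width or percentile, pools of 1 file-name number and leaving out each pool.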

Additional observations from a re-analysis of the deposited data

How the results depend on the processing

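The number of H3K9bhb-free regions depended on the lists used. It was 1 with all lists trimmed to equal length, too few for shares, and 4690 with equal lengths for the H3K9bhb lists alone, an alternative added after seeing the data. It ranged between 2774 and 5826 with 1 pool left out, since leaving out a fasted pool drops its lists from the requirements (5826 without fasted pool 2, 5122 without fasted pool 5). Other settings gave 2546 to 3204. The share on X, whose alternatives were also added after seeing the data, ranged from 67.4% to 90.6% and on the autosomes from 22.2% to 41.5%, and X was higher in every setting run.

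The mean differences over pools in mark share between H3K9bhb-free and H3K9bhb-carrying regions kept their sign in every setting run. For H3K79me2 with width weighting the exact sign-flip p was 0.25. As 4 pools of 1 sign give 0.125, not every pool kept the sign there. With 1 pool left out the mean differences lay between -44.2 and -27.9 points for H3K27ac, -64.1 and -60.0 for H4K12bhb, and -40.1 and -24.8 for H3K4me1. They lay between -28.8 and -15.1 points for H3K79me2, and 1.09 and 2.30 for H3K9me3. None could pass 0.05, so this says nothing of significance. Fasted minus fed differences with 1 pool left out ranged from -6.52 to 29.3 points for H3K4me1 and from -14.1 to 23.5 for H3K79me2, with -10.4 for H3K79me2 without fasted pool 5. The fasted minus fed change of the gap between classes reversed for H3K4me1 within the number 11 (4.83, against -13.7 in all pools) and ranged from -36.7 to 9.23 with 1 pool left out. For H3K79me2 (-9.25 in all pools) it reversed at 50% cover (0.330) and within the number 11 (2.84), and ranged from -25.6 to 7.13 with 1 pool left out. For H4K12bhb (-1.65) it was -11.4 at 50% cover, reversed with equal H3K9bhb lengths (7.59) and within the number 10 (2.71), and ranged from -5.96 to 2.60 with 1 pool left out, with 2.35 without fasted pool 5. The cause of these reversals was not tested. No paired analysis was possible because fasted and fed pools share no replicate number in the labels; the differences within each file-name number, 1 fasted and 1 fed pool each, are values with no test. With H3K9me3 regions left out there is no H3K9me3 value. Read depth is unknown, so no limit of detection can be given.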
